A study of Mus musculus with 16 samples.

Results

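The Hox genes encode homeodomain transcription factors that give cells a position along the body and limb axes. The 39 protein-coding members named Hox, a letter from a to d and a number from 1 to 13 were taken by symbol from the 24485 genes measured, and all 39 were found. They were followed by mRNA sequencing in immortalized mouse embryonic fibroblasts of 2 lines. The exp line is R26M2rtTA/+;TetOcre;Sdhcfl/fl and the ctl line is R26M2rtTA/+;TetOcre;Sdhcfl/wt, so both carry the doxycycline-dependent activator M2rtTA at the Rosa26 locus and a TetO-driven Cre, and they differ in having both copies or 1 copy of Sdhc floxed. Doxycycline was given to both lines at 1 µg/mL in low-glucose medium with serum, and cells were taken at days 0, 5, 9, 12, 16 and 20. Day 16 has 3 biological replicates per line and each other day has 1 library, which makes 8 libraries per line and 16 in all. Each genotype is represented by a single line, whose own traits and the genotype cannot be told apart, and the p-values measure the spread between libraries of 1 line each.

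Mammalian Hox genes lie in 4 clusters, HoxA to HoxD, that arose by duplication. Members with the same number form a paralog group and have closely similar homeodomains. The low-numbered genes at the 3′ end of a cluster come on first and most anteriorly in the embryo, and the high-numbered genes at the 5′ end come on last, at the tail end and in the distal limb. Fibroblasts taken from the adult keep a site-specific set of active Hox genes in culture, and Polycomb proteins hold the other members silent.

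The libraries held 18121427 to 42486270 reads in genes. Sdhc, the targeted gene, had 87.8, 54.4, 43.8, 44, 36.9, 32.8, 26.5 and 42.5 FPKM in exp and 90.5, 58.6, 47.6, 52.6, 50.5, 50.1, 47.5 and 54.7 FPKM in ctl, in the order day 0, 5, 9, 12, day 16 replicates 1, 2 and 3, and day 20. This library order is used throughout. FPKM counts fragments per kilobase of gene, scaled to the depth of the library, and it allows levels of different genes to be compared. At day 16 Sdhc was lower in exp, with a log2 difference of -0.62 ± 0.12 (SE; limma, adjusted p = 0.0434). That call was lost without exp replicate 2 or 3 or any ctl replicate (up to 0.15), with no filter on low values and with median-of-ratios rescaling. The lines differed outside Sdhc too. Xist, the X-inactivation RNA, ranged over 0.0709 to 0.283 FPKM in exp and 51.1 to 92.5 FPKM in ctl, day 0 included. Of 11 fibroblast markers, 11 had a mean of at least 1 FPKM in exp and 10 in ctl. Over all days 5 of them were called higher in exp and 3 lower (19.2% and 16.7% of all genes). Of 3 muscle markers Myod1 and Myog were listed at 0 in every library and Des reached at most 0.36 FPKM. In each line 2 of 3 neural markers and 1 of 3 blood markers had a mean of at least 1 FPKM. Of the neural markers, Tubb3 had a mean of 10.3 FPKM in exp and 24.6 in ctl. Sox2 overlapped between the lines, with means of 3.38 FPKM in exp and 3.14 in ctl. Sox10 was listed at 0 in every exp library and reached at most 0.0345 FPKM in ctl. Day 16 replicates 2 and 3 of exp resembled each other (r = 0.995 over genes) more than replicate 1 (0.952 and 0.954), which resembled day 20 (0.993). In ctl, replicates 2 and 3 correlated at 0.997 with each other and at 0.979 and 0.981 with replicate 1.

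The lines carried different Hox codes. In exp, the 5′ members Hoxa9 to Hoxa13 and the HoxD genes Hoxd4 and Hoxd8 to Hoxd13 were higher, while Hoxa2 to Hoxa7, Hoxb4, Hoxb6 to Hoxb9 and Hoxc4 to Hoxc9 were lower. Over all days, 30 members reached a mean of 1 FPKM and were tested, and 29 differed between the lines (limma on log2(FPKM + 1), Benjamini-Hochberg adjusted p under 0.05). Among all 12559 genes tested, 35.9% were called. The 13 higher members were Hoxa9, Hoxa10, Hoxa11, Hoxa13, Hoxb2, Hoxc13, Hoxd4 and Hoxd8 to Hoxd13, against a background of 19.2% called higher. The 16 lower members were Hoxa2 to Hoxa7, Hoxb4, Hoxb6 to Hoxb9, Hoxc4, Hoxc5, Hoxc6, Hoxc8 and Hoxc9, against 16.7% of all genes. Of the 30, 20 reached 1 FPKM in both lines, 7 in ctl alone and 3 in exp alone, and those 10 entered through the line where they are high. All 8 exp libraries lay apart from all 8 ctl libraries for 27 of the 30 members, where 10.2% of all genes tested did so. Of the 27, 12 had exp above (5.50% of all genes) and 15 had exp below (4.65%).

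**Figure D1:**
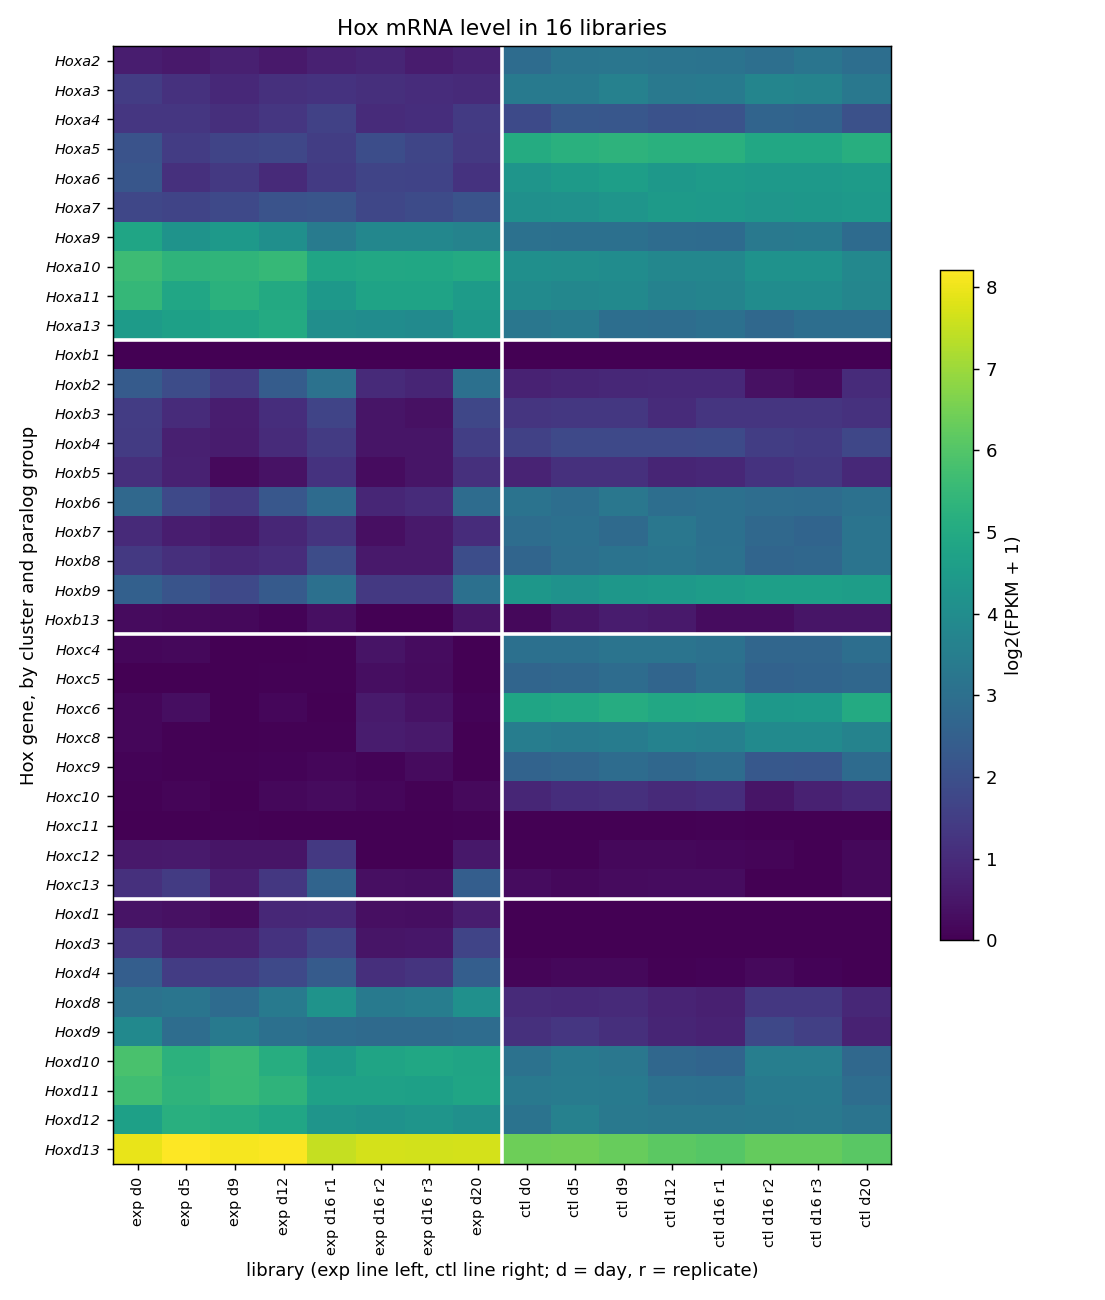
Level of 38 Hox genes as log2(FPKM + 1), with genes as rows by cluster and paralog group and the 16 libraries as columns, exp left and ctl right. Hoxd13 is the highest row in both lines, and Hoxc4 to Hoxc9 are at or near 0 in exp.

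The same split was present at day 0. There, with 1 library per line and no test, each of the 29 members had the sign of its difference over all days, as did 4183 of the 4503 genes called, and day 0 is itself 1 of the days in that fit. In the day 16 fit, which holds no day 0 library, 30 members were tested and 23 were called, where 6.10% of 12533 genes were. Of these, 9 were higher in exp (Hoxa10, Hoxa11, Hoxa13 and Hoxd8 to Hoxd13), where 3.10% of all genes were, and 14 were lower (Hoxa2 to Hoxa7, Hoxb7, Hoxb8, Hoxb9, Hoxc4, Hoxc5, Hoxc6, Hoxc8 and Hoxc9), where 3.01% were. All 23 had the same sign in the day 0 libraries, as did 662 of the 765 genes called. Of the 30 members in the day 16 fit, 19 reached 1 FPKM in both lines, 9 in ctl alone and 2 in exp alone. Since the samples are bulk cultures, fewer cells expressing a gene and less RNA per cell cannot be told apart.

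**Figure D2:**
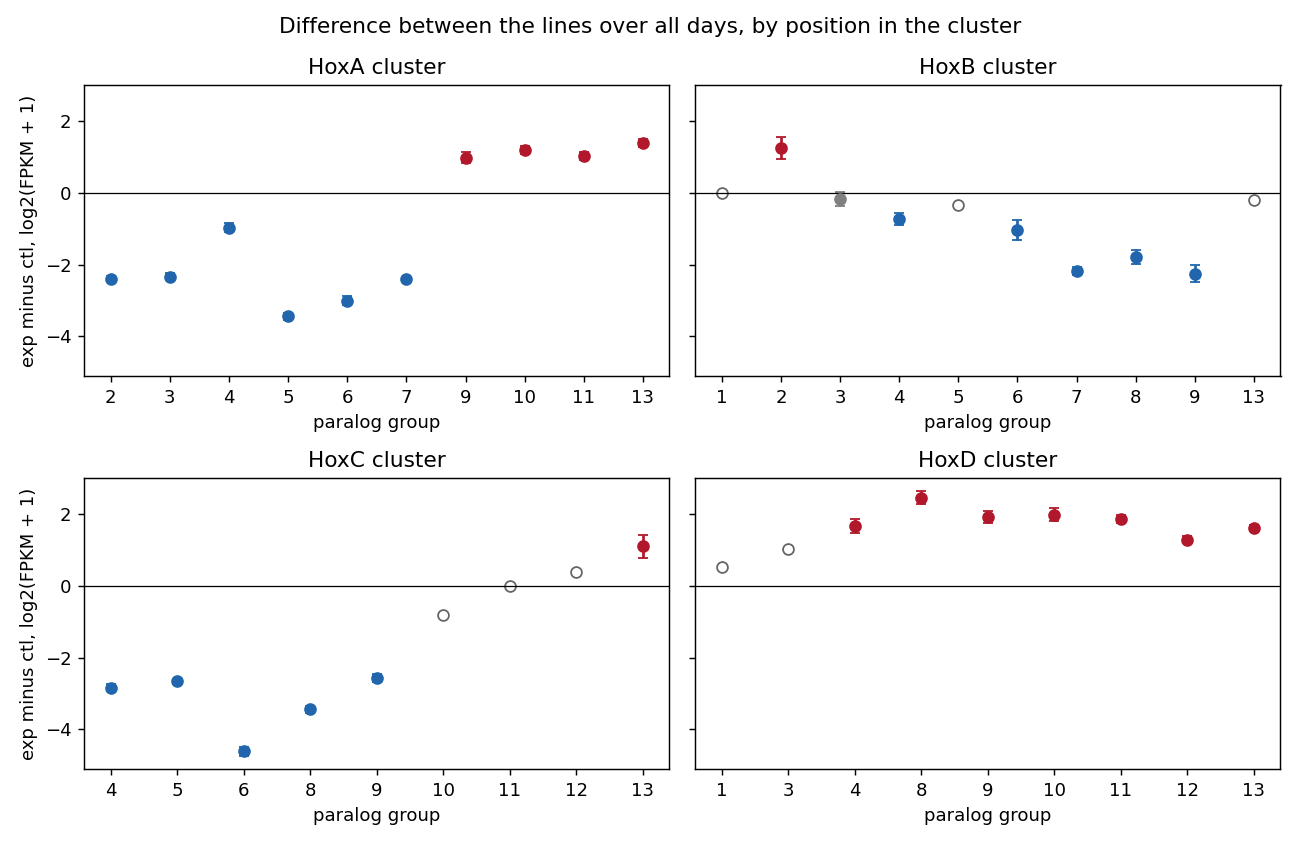
Difference between the lines over all days in log2(FPKM + 1), exp minus ctl, against paralog group in each cluster. Filled points with SE bars are the 30 members tested (red higher in exp, blue lower, grey not called), and open circles are 8 members under 1 FPKM, shown as plain differences of means with no test. In HoxA the sign turns between Hoxa7 (-2.41) and Hoxa9 (0.98).

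HoxA, on chromosome 6 from 52105366 to 52210874 (mm9, minus strand), changed sign inside the cluster. Its 3′ genes were lower in exp. Hoxa5, which patterns the lung and the shoulder region, had 3.31, 1.73, 2.22, 2.39, 1.82, 2.86, 2.29 and 1.56 FPKM in the exp libraries. In the ctl libraries Hoxa5 had 32.4, 36.1, 39, 36.5, 36.2, 29.6, 29.6 and 34.5 FPKM. The groups do not overlap, the exp mean was 6.64% of the ctl mean, and the difference was -3.44 ± 0.10 log2 (SE; limma, adjusted p = 1.84e-10). All log2 differences are on the log2(FPKM + 1) scale, which understates the change of low genes.

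Hoxa6 had 3.59, 1.18, 1.58, 0.953, 1.63, 2.22, 2.12 and 1.32 FPKM in the exp libraries, against 18.5, 21.5, 23.3, 19.9, 21.9, 20.4, 20.8 and 21.7 FPKM in the ctl libraries. This mid-trunk member was lower in every exp library than in any ctl library, with a log2 difference of -3.01 ± 0.13, and exp day 0 was the highest of the exp values. Hoxa2 had 0.565, 0.466, 0.667, 0.475, 0.698, 0.803, 0.539 and 0.716 FPKM in the exp libraries, against 6.45, 8.2, 8.35, 7.86, 7.8, 6.99, 8.05 and 6.74 FPKM in the ctl libraries. Hoxa2, a selector gene of the hindbrain and the branchial arches, stayed under 1 FPKM in exp, at 8.16% of the ctl mean (-2.40 ± 0.07 log2). Hoxa3 had 1.74, 1.24, 0.915, 1.19, 1.32, 1.15, 1.05 and 0.954 FPKM in the exp libraries, against 9.51, 9.34, 11.2, 8.99, 9.14, 12.2, 11.8 and 8.8 FPKM in the ctl libraries. Hoxa3, needed for the thymus and the parathyroids, was lower, with a log2 difference of -2.34 ± 0.09 with no overlap, and the ctl day 16 replicates 2 and 3 were its highest values. Hoxa4 ranged over 1.02 to 2.02 FPKM in exp and 2.61 to 5.28 FPKM in ctl, a difference of -0.97 ± 0.12 log2 that was the smallest in size of the 6 lower HoxA genes. Hoxa4 differed by -0.52 log2 in the replicate 1 pair and by -1.58 in replicates 2 and 3, and its day 16 call (adjusted p = 0.0336) was lost with the replicate number as a block (limma adjusted p = 0.0705), with no filter on low values and without exp or ctl replicate 2 or 3 (up to 0.143). Exons of Hoxa2 and Hoxa3 share 267 bases on the same strand, and reads there cannot be assigned to either gene.

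The turn fell between Hoxa7 and Hoxa9, whose annotated gene bodies are 1245 bases apart. Hoxa7 had 2.39, 2.21, 2.55, 3.28, 3.47, 2.35, 2.64 and 3.34 FPKM in the exp libraries, against 16.4, 16.7, 18.3, 21.1, 20.8, 19.1, 19.5 and 20.4 FPKM in the ctl libraries. Hoxa7, a gene of thoracic identity, was lower in all exp libraries, with a log2 difference of -2.41 ± 0.06 (limma, adjusted p = 5.72e-11). Hoxa9 had 27.6, 17.6, 20.5, 16.2, 9.64, 13, 13 and 11.9 FPKM in the exp libraries, against 7.45, 7.17, 7.17, 6.53, 6.4, 9.03, 9.2 and 6.3 FPKM in the ctl libraries. Hoxa9, which acts in blood progenitors and in the posterior trunk, was higher in all exp libraries by 0.98 ± 0.15 log2 (limma, adjusted p = 0.000482). At day 16 alone Hoxa9 did not pass (0.49 ± 0.17 log2, limma adjusted p = 0.167). It passed with the replicate number as a block (limma adjusted p = 0.0205) and with replicates 2 and 3 alone. The 250 bases before the RefSeq start of each of these neighbours (GRCm38.p6) are shown because the 2 genes border the turn. The Hoxa9 window lies on the side of its RefSeq start away from Hoxa7, and RefSeq starts can differ from the ends of the annotated gene bodies. Capitals mark the TATA box TATAAA, the Cdx core TTTATG or the nuclear receptor core AGGTCA on either strand.
Hoxa7, chr6:52218574-52218823 (- strand): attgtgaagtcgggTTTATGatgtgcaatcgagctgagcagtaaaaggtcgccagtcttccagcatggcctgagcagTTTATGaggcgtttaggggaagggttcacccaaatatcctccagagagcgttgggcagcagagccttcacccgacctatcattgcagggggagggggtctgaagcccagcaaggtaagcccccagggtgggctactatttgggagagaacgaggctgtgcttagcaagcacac
Hoxa9, chr6:52227371-52227620 (- strand): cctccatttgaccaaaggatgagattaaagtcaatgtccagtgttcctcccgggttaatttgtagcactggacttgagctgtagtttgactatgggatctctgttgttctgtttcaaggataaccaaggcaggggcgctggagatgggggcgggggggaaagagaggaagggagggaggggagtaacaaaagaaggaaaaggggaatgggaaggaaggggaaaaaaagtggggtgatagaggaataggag
The Hoxa7 window holds TTTATG, the core of a Cdx binding site, at a pair of places and 7 CpG dinucleotides, and the Hoxa9 window holds none of the 3 motifs and 3 CpG.

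The 5′ HoxA genes were higher in exp, and for the next 3 genes every exp value lay above every ctl value. Hoxa10 had 48.5, 39.4, 40.8, 44.1, 27.6, 29.2, 28.5 and 31.6 FPKM in the exp libraries, against 16, 15.7, 15, 13.1, 12.8, 17.3, 17.2 and 13.4 FPKM in the ctl libraries. Hoxa10, which acts in the uterus and the lumbar region, was higher by 1.19 ± 0.11 log2, with an exp mean 2.41 times the ctl mean. Hoxa11 had 43.6, 28.2, 37, 30.6, 20.0, 26.1, 26.2 and 22 FPKM in the exp libraries, against 14.3, 13, 13.8, 11.6, 12.1, 14.8, 15 and 12.7 FPKM in the ctl libraries. Hoxa11, which patterns the forearm and the lower leg together with Hoxd11, was higher by 1.03 ± 0.11 log2. Its antisense partner shares 1038 exon bases (38.6% of Hoxa11) on the opposite strand, and since the kit does not mark strand the reads of both cannot be told apart. Hoxa13 had 21.7, 24.6, 26.8, 31.8, 15.8, 14.9, 14.2 and 19.2 FPKM in the exp libraries, against 8.55, 9.28, 6.88, 6.57, 7.19, 5.78, 6.83 and 6.88 FPKM in the ctl libraries. Hoxa13, a gene of the hand, the foot and the genital tubercle, was higher by 1.39 ± 0.11 log2, 2.92 times the ctl mean. Over the day 16 replicates, Hoxa10 averaged 28.4 ± 0.761 FPKM in exp and 15.7 ± 2.55 FPKM in ctl (SD, n = 3 each). Hoxa13 averaged 15 ± 0.765 FPKM in exp and 6.60 ± 0.732 FPKM in ctl there. The day 16 calls of Hoxa10 and Hoxa11 (limma adjusted p = 0.0177 and 0.0345) were lost when exp or ctl replicate 2 or 3 was left out, with adjusted p up to 0.0839 for Hoxa10 and 0.127 for Hoxa11. The Hoxa11 call was also lost without ctl replicate 1 and with no filter on low values.

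HoxB, on chromosome 11 from 96055630 to 96229570 (plus strand), was lower in exp for Hoxb4 and Hoxb6 to Hoxb9, while Hoxb2 was higher. Hoxb9 had 4.78, 3.37, 2.53, 4.06, 7.25, 1.58, 1.56 and 7.15 FPKM in the exp libraries, against 19.2, 17.4, 19.5, 20.3, 22.5, 23.9, 23.9 and 22.7 FPKM in the ctl libraries. Hoxb9, which patterns the thoracic ribs, was lower in every exp library, with a log2 difference of -2.26 ± 0.24 (limma, adjusted p = 2.75e-05), at 19.1% of the ctl mean. Hoxb7 had 0.988, 0.565, 0.451, 0.84, 1.37, 0.261, 0.49 and 1.06 FPKM in the exp libraries, against 6.72, 7.19, 6.23, 8.53, 7.18, 5.82, 5.3 and 7.87 FPKM in the ctl libraries. Hoxb7 was lower, with a log2 difference of -2.18 ± 0.12, at 11% of the ctl mean, with no overlap. Hoxb8 had 1.57, 1.15, 0.88, 1.04, 2.75, 0.491, 0.479 and 2.85 FPKM in the exp libraries, against 5.46, 7.05, 7.8, 8.14, 7.45, 5.45, 5.74 and 7.88 FPKM in the ctl libraries. Hoxb8, known for a role in microglia and grooming, was lower, with a log2 difference of -1.79 ± 0.20, again with no overlap. Exons of Hoxb7 and Hoxb8 share 1069 bases on the same strand, so these 2 values are not independent. The day 16 calls of Hoxb8 (limma adjusted p = 0.0495) and Hoxb9 (0.0292) were lost without exp replicate 2 or 3 or any ctl replicate (up to 0.165 and 0.125), and that of Hoxb7 without ctl replicate 2 (0.0526).

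Hoxb6 had 5.81, 2.5, 1.61, 3.73, 6.36, 0.847, 1.03 and 6.41 FPKM in the exp libraries, against 7.72, 6.9, 8.46, 6.81, 7.19, 6.61, 6.41 and 7.43 FPKM in the ctl libraries. Hoxb6, a gene of the trunk and the limb buds, came close to ctl in exp day 0, day 16 replicate 1 and day 20, and its lowest ctl value equals its highest exp value at 3 significant digits. It was lower, with a log2 difference of -1.05 ± 0.28 over all days (limma, adjusted p = 0.0133), and at day 16 exp minus ctl was -0.15 log2 for replicate 1 and -1.95 log2 for the other pairs. Hoxb4 had 1.68, 0.667, 0.557, 1.0, 1.72, 0.377, 0.391 and 1.86 FPKM in the exp libraries, against 2.01, 2.48, 2.52, 2.53, 2.61, 1.81, 1.62 and 2.34 FPKM in the ctl libraries. Hoxb4, a regulator of blood stem cells, overlapped between the lines and was lower, with a log2 difference of -0.72 ± 0.17 (adjusted p = 0.00554). Hoxb2 had 4.16, 2.74, 1.65, 4.22, 7.61, 0.969, 0.807 and 7.19 FPKM in the exp libraries, against 0.728, 0.806, 0.865, 0.918, 0.915, 0.289, 0.182 and 0.998 FPKM in the ctl libraries. Hoxb2, a hindbrain gene, was higher in exp by 1.25 ± 0.30 log2 (adjusted p = 0.00762), with overlap at exp day 16 replicates 2 and 3. Hoxb3 ranged over 0.302 to 2.35 FPKM in exp and 1.03 to 1.51 FPKM in ctl and was not called (-0.18 ± 0.20 log2, limma adjusted p = 0.507). Hoxb3os exons cover 49.4% of the Hoxb2 exons and 37.9% of those of Hoxb3 on the opposite strand, so their reads cannot be told apart. Hoxb5 ranged over 0.151 to 1.31 FPKM in exp and 0.757 to 1.52 FPKM in ctl. Hoxb13, the 5′ end gene, ranged over 0.0 to 0.381 FPKM in exp and 0.119 to 0.536 FPKM in ctl, with 39 reads in exp and 110 in ctl over 8 libraries each. Hoxb1 reached at most 0.0161 FPKM. Hoxb1, Hoxb5 and Hoxb13 were under the level tested.

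HoxC, on chromosome 15 from 102751534 to 102867274 (plus strand), was near 0 from Hoxc4 to Hoxc9 in exp and active in ctl, and every exp value of these 5 genes lay below every ctl value. Hoxc6 had 0.0946, 0.243, 0.0, 0.112, 0.0, 0.512, 0.33 and 0.0484 FPKM in the exp libraries, against 27.4, 29.1, 32.7, 29.5, 29.9, 20.0, 21 and 31.6 FPKM in the ctl libraries. Hoxc6, a gene of the thoracic trunk and the forelimb level, had the largest difference in size of the 30 members at -4.61 ± 0.13 log2 (limma, adjusted p = 1.62e-10), and its exp mean was 0.606% of the ctl mean. Hoxc8 had 0.106, 0.0233, 0.0172, 0.0375, 0.0424, 0.526, 0.464 and 0.0 FPKM in the exp libraries, against 10.2, 9.18, 9.81, 11.4, 11, 14.1, 14.1 and 11.7 FPKM in the ctl libraries. Hoxc8, which patterns the thoracic skeleton and brachial motor neurons, was lower, with a log2 difference of -3.44 ± 0.09. Hoxc4 had 0.101, 0.139, 0.0, 0.0, 0.0338, 0.359, 0.205 and 0.0 FPKM in the exp libraries, against 7.26, 7.15, 7.93, 8.03, 7.4, 5.53, 5.49 and 6.76 FPKM in the ctl libraries. Hoxc4, the 3′ end gene of the cluster, was lower, with a log2 difference of -2.84 ± 0.10. Hoxc5 had 0.0184, 0.0, 0.0, 0.0325, 0.0245, 0.233, 0.184 and 0.0141 FPKM in the exp libraries, against 5.34, 5.7, 6.56, 5.41, 6.75, 5.02, 5.22 and 5.77 FPKM in the ctl libraries. Its neighbour Hoxc5 was lower, with a log2 difference of -2.66 ± 0.08. Hoxc9 had 0.0584, 0.0321, 0.0238, 0.0517, 0.0974, 0.0592, 0.181 and 0.0 FPKM in the exp libraries, against 5.19, 5.51, 6.44, 5.63, 6.45, 3.83, 3.67 and 6.4 FPKM in the ctl libraries. Hoxc9, a gene of thoracic motor neurons, was lower, with a log2 difference of -2.57 ± 0.11. In reads, summed over 8 libraries, exp had 56, 52, 70, 107 and 28 for Hoxc4, Hoxc5, Hoxc6, Hoxc8 and Hoxc9, and ctl had 3528, 4049, 11210, 7244 and 2356. All 5 calls held at day 16 and in every alternative in which the gene was tested.

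In exp, Hoxc4, Hoxc5, Hoxc6 and Hoxc8 had their highest values in day 16 replicates 2 and 3, and Hoxc9 had its highest in replicate 3. In exp day 16 replicates 2 and 3 the 5 genes stood at 2.06% (Hoxc6) to 5.12% (Hoxc4) of the ctl mean of the same replicates, and in the other 6 exp libraries at 0.252% (Hoxc5) to 0.739% (Hoxc9). Xist, which was high in ctl and near 0 in exp, stood at 0.273% of ctl in replicates 2 and 3 and at 0.198% in the other 6 libraries. The source of these residual values was not tested. Hoxc6 had 0.512 and 0.330 FPKM in replicates 2 and 3, where Hoxc8 had 0.526 and 0.464. Only the RefSeq promoter of Hoxc4 was at hand for this cluster, and it is shown with the same marks.
Hoxc4, chr15:103034145-103034394 (+ strand): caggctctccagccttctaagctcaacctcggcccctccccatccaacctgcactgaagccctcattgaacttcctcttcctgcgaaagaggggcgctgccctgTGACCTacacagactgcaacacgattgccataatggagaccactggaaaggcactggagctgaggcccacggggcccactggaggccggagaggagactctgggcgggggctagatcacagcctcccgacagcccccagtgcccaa
It holds 1 AGGTCA, the core of sites bound by the receptors of retinoic acid and by other nuclear receptors, read on the reverse strand, and 8 CpG.

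Hoxc13, at the 5′ end of HoxC, ran the other way. Hoxc13 had 1.2, 1.68, 0.604, 1.53, 5.29, 0.251, 0.236 and 4.54 FPKM in the exp libraries, against 0.218, 0.142, 0.177, 0.205, 0.212, 0.0, 0.0101 and 0.142 FPKM in the ctl libraries. Hoxc13, which acts in hair follicles and nails, was higher in exp by 1.11 ± 0.32 log2 (limma, adjusted p = 0.0189). The lines did not overlap by a narrow margin, with a lowest exp value of 0.236 FPKM and a highest ctl value of 0.218. Its exp values spread 22.4-fold between lowest and highest, and it reached a mean of 1 FPKM in exp alone. Without exp day 16 replicate 1 or without day 20 its mean fell under the level tested. Hoxc10, a lumbar and hindlimb gene, ranged over 0.0213 to 0.175 FPKM in exp and 0.394 to 1.19 FPKM in ctl with no overlap, 38 reads against 435. Hoxc12 ranged over 0.0 to 1.55 FPKM in exp and 0.0 to 0.139 FPKM in ctl, and Hoxc11 reached at most 0.0446 FPKM in exp and 0.0313 in ctl. Hoxc10, Hoxc11 and Hoxc12 were under the level tested. With no filter on low values, Hoxc10, Hoxb13, Hoxd1 and Hoxd3 were called among the 9 members under 1 FPKM over all days, and none of the 9 under it at day 16. Over all days that fit called 5505 genes in all, against 4503 with the filter. Hoxb13 overlapped between the lines.

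HoxD, on chromosome 2 from 74506367 to 74603200 (plus strand), was higher in exp from Hoxd8 to Hoxd13, with every exp value above every ctl value in these 6 genes. Hoxd13 had 244, 296, 274, 285, 180, 207, 200 and 205 FPKM in the exp libraries, against 83.4, 85.5, 78.8, 69.4, 64.7, 76.8, 76 and 68 FPKM in the ctl libraries. Hoxd13, which shapes the digits, was the highest Hox gene in both lines and was higher in exp by 1.62 ± 0.08 log2 (limma, adjusted p = 1.95e-08), 3.14 times the ctl mean. Hoxd12 had 24.5, 35.1, 32.6, 28, 18.5, 17.2, 18.6 and 16.5 FPKM in the exp libraries, against 7.77, 11.3, 9.08, 8.6, 8.51, 8.85, 9.02 and 7.85 FPKM in the ctl libraries. Hoxd12, its neighbour with a part in the digits, was higher by 1.29 ± 0.10 log2. Hoxd11 had 50.9, 39.8, 45, 39.5, 25, 25, 24.7 and 27.5 FPKM in the exp libraries, against 8.99, 9.62, 9.5, 7.32, 7.25, 9.49, 9.15 and 6.6 FPKM in the ctl libraries. Hoxd11, a forearm gene, was higher by 1.87 ± 0.12 log2. Hoxd10 had 57.3, 37.9, 45.9, 33.9, 21.4, 27.1, 28.7 and 26.9 FPKM in the exp libraries, against 7.46, 9.38, 8.46, 5.66, 5.23, 10.4, 10.4 and 5.92 FPKM in the ctl libraries. Hoxd10, a gene of the lumbar level and the limb, was higher by 1.99 ± 0.18 log2, 4.44 times the ctl mean, and ctl day 16 replicates 2 and 3 were the highest ctl values. Hoxd9 had 14, 6.73, 9.32, 7.23, 6.49, 6.23, 6.18 and 6.47 FPKM in the exp libraries, against 1.19, 1.45, 1.17, 0.814, 0.737, 2.45, 1.92 and 0.724 FPKM in the ctl libraries. Hoxd9, which acts in the upper limb segment, was higher by 1.93 ± 0.17 log2. Hoxd8 had 7.48, 8.18, 6.39, 9.54, 17.7, 9.43, 10.2 and 16.6 FPKM in the exp libraries, against 0.954, 0.945, 0.96, 0.775, 0.637, 1.52, 1.52 and 0.865 FPKM in the ctl libraries. Hoxd8 was higher by 2.47 ± 0.17 log2, the largest positive difference of the 30 members on this scale, and its exp mean was 10.5 times the ctl mean. As a ratio of means, Hoxd4 (31 times) and Hoxc13 (13.9 times), which are low in ctl, stood above it. Each of the 6 was called at day 16 too. The Hoxd10 day 16 call (limma adjusted p = 0.0304) was lost without exp or ctl replicate 2 or 3 (up to 0.114), and that of Hoxd9 (0.0292) without exp replicate 2 or 3 or ctl replicate 3 (up to 0.108).

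The 3′ HoxD genes were near 0 in ctl. Hoxd4 had 4.51, 1.75, 1.82, 2.53, 4.11, 1.14, 1.34 and 4.52 FPKM in the exp libraries, against 0.0732, 0.135, 0.138, 0.0417, 0.0672, 0.166, 0.0674 and 0.0135 FPKM in the ctl libraries. Hoxd4, a gene of the hindbrain and the neck vertebrae, was higher in every exp library by 1.68 ± 0.20 log2 (limma, adjusted p = 6.04e-05) and did not pass at day 16 (1.42 ± 0.34 log2, limma adjusted p = 0.0706). Hoxd3 had 1.45, 0.647, 0.661, 1.32, 2.24, 0.377, 0.412 and 2.24 FPKM in exp and at most 0.0135 FPKM in ctl, with 707 reads against 4 over 8 libraries each. Hoxd1, which acts in pain-sensing neurons, had 185 reads in exp and 1 in ctl. Hoxd3 and Hoxd1 were under the level tested, and their lines do not overlap. Exons of Hoxd3 and Hoxd4 share 1725 bases on the same strand, 67.4% of Hoxd4, so part of either value may come from the other gene. The Hoxd4 promoter is shown because the gene was near silent in 1 line and active in the other.
Hoxd4, chr2:74721728-74721977 (+ strand): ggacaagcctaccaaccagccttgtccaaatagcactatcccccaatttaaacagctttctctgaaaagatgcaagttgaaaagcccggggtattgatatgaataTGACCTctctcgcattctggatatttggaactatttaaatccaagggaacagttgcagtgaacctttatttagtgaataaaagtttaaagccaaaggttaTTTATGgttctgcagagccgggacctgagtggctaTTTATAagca
It holds 1 of each of the 3 motifs and 3 CpG.

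The 250 bases before the start were at hand for 22 of the 39 members, in 24 entries since Hoxa10 and Hoxd11 have more than 1. TTTATG was in 5 of the 24 (10.8% of 32851 promoters of the same length), TATAAA in 4 (12.4%) and AGGTCA in 6 (14.0%). TGACAG, a Meis-type site, was in 2 (15.9%), at Hoxa2 and Hoxa3, and CCAAT was in 14 (33.8%). Motifs were read on both strands, and none of these 5 contains another. Of the 13 entries of genes higher in exp, 2 held the Cdx core, 3 the TATA box and 3 the nuclear receptor core. Of the 8 entries of genes lower in exp, 2 held the Cdx core, 1 the TATA box and 2 the nuclear receptor core. These matches describe letters in a window and are not binding sites found in these cells.

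Summed by cluster, the lines differed in composition more than in total. HoxD made up 69.2% to 76.0% of the summed Hox FPKM in exp and 25.7% to 32.6% in ctl, and Hoxd13 alone 41.8% to 52.8% in exp and 19.1% to 24.3% in ctl. HoxC made up 0.196% to 1.80% in exp and 14.1% to 18.6% in ctl, and HoxB 1.30% to 7.72% in exp and 12.4% to 15.2% in ctl. The summed FPKM of all 39 genes was 391 to 584 in exp and 339 to 369 in ctl. HoxA summed to 85.4 to 155 FPKM in exp and 133 to 147 in ctl, ranges that overlap although its 3′ and 5′ genes differed in opposite directions.

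**Figure D3:**
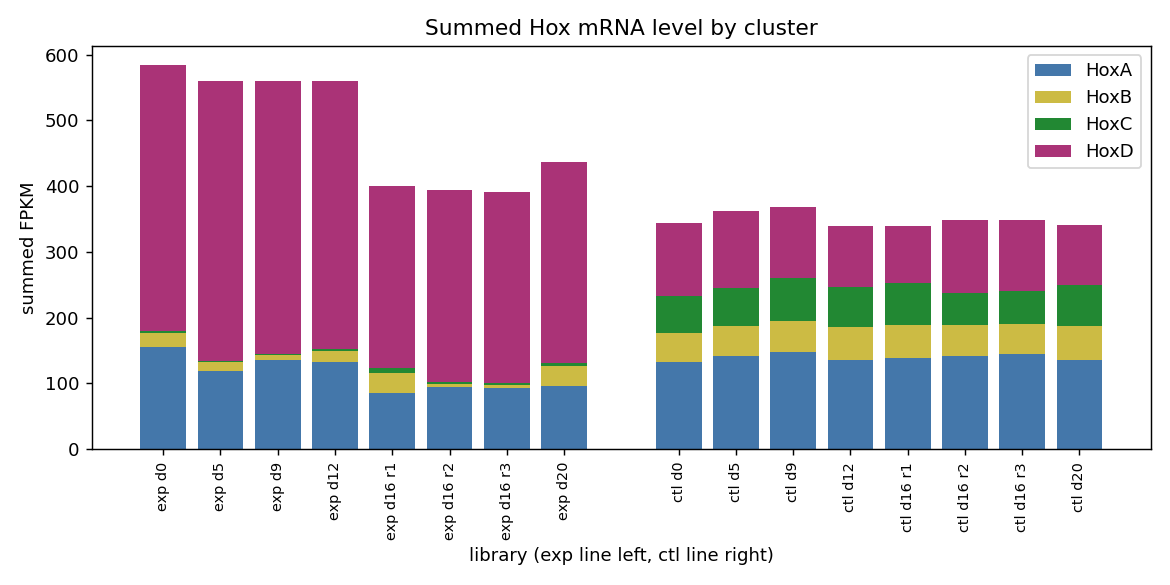
Summed FPKM of the members of each cluster, stacked, in each of the 16 libraries, exp left and ctl right. HoxD is the tallest segment in all exp libraries (277 to 426 FPKM) and HoxC is visible as a band in ctl (49.0 to 65.0 FPKM).

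Other genes inside the clusters were read too. Of 18 present in the files, 10 were tested and 9 were called over all days, 2 higher and 7 lower (19.2% and 16.7% of all genes). Mira, next to Hoxa6 and Hoxa7, ranged over 5.17 to 7.34 FPKM in exp and 38.7 to 50.0 FPKM in ctl (-2.65 ± 0.06 log2), and Hoxaas2 (-2.11 ± 0.09 log2) and Hoxaas3 (-2.44 ± 0.13 log2) were lower too. Hoxa11os was higher in exp (1.42 ± 0.13). Hotairm1, at the 3′ end of HoxA, was lower (-0.73 ± 0.13 log2), as was Hoxb5os (-0.81 ± 0.19 log2), whose call was lost without day 16 (limma adjusted p = 0.0527). Both overlapped between the lines. Hotairm1 at exp day 0 (19.6 FPKM) lay above every ctl value (14.9 to 18.5 FPKM). Hoxb5os differed by -0.20 log2 in day 16 replicate 1 and by -1.31 in the mean of replicates 2 and 3. Hotair, the HoxC transcript, reached at most 0.0452 FPKM. Gm53, within HoxB, ranged over 0.233 to 1.3 FPKM in exp and 11.1 to 14.1 FPKM in ctl (-3.03 ± 0.09 log2).

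The miRNA genes of the clusters have mature forms in seed families, with bases 2 to 8 in capitals (RefSeq, GRCm38.p6).
miR-196a-5p, from Mir196a-1 in HoxB at chr11:96265187-96265208 (+ strand): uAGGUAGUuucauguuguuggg
miR-196b-5p, from HoxA at chr6:52230129-52230150 (- strand): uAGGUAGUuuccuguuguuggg
miR-10a-5p, from HoxB at chr11:96317186-96317208 (+ strand): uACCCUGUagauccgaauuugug
miR-10b-5p, from HoxD at chr2:74726074-74726096 (+ strand): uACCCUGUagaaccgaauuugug
They are shown because the first pair shares a seed while its 2 genes differed between the lines in opposite directions. The miR-196 family is known to cut Hoxb8 mRNA. Mir196a-1 had 2.46, 1.62, 1.6, 0.871, 0.657, 0.0, 0.938 and 1.13 FPKM in exp, against 15.9, 20.7, 28.8, 16.4, 16.6, 20.8, 25.4 and 16.6 FPKM in ctl (-3.34 ± 0.20 log2; limma, adjusted p = 2.16e-07). Mir196b had 8.85, 7.14, 12, 16.2, 7.09, 3.59, 3.66 and 4.53 FPKM in exp, against 2.57, 4.07, 4.14, 4.61, 3.03, 3.32, 2.61 and 1.22 FPKM in ctl (0.99 ± 0.17 log2; adjusted p = 0.00101), with overlap. The values rest on 0 to 5 reads per exp library and 47 to 105 per ctl library for Mir196a-1, and on 10 to 31 and 3 to 12 for Mir196b. Mir196b lies within an annotated Hoxa9 exon (85 shared bases), so its reads and those of Hoxa9 cannot be told apart. Mir10b and Mir196a-2 were listed at 0 in every library. A gene value from an mRNA library counts the primary transcript around the hairpin and is not the level of the mature miRNA.

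Over the time after doxycycline, 5 of the 30 members tested (16.7%) had a slope in exp, where 4.95% of all genes did. By limma, 0 of the 30 slopes differed between exp and ctl (0.207% of all genes did; 4 members had an unadjusted p under 0.05, and limma voom on recovered reads also called none). None had a slope in ctl, where limma called 0 of 12559 genes (203 at an unadjusted p under 0.05, Hoxa7 the member among them; limma voom also called no member). In exp, 5 fell over 20 days, Hoxa9 by 1.22 ± 0.22, Hoxa10 by 0.76 ± 0.19, Hoxa11 by 0.89 ± 0.19, Hoxd10 by 1.19 ± 0.32 and Hoxd11 by 1.10 ± 0.21 log2 (limma, adjusted p = 0.0116, 0.0388, 0.0226, 0.0467 and 0.0147). Among all genes 4.95% changed, 3.59% down and 1.36% up, which is 622 genes and 1036 with the replicate number as a block. Hoxd10 fell to 26.9 FPKM at exp day 20, against 57.3 at exp day 0, and Hoxd11 to 27.5 against 50.9. Hoxa10 lost its call in 10 of 23 alternatives and Hoxd10 in 13 of 23, in both cases without any 1 exp replicate (limma adjusted p = 0.0659 to 0.0757 and 0.0699 to 0.0883), with no filter on low values, under quantile normalization and without day 9. Without day 0 none of the 5 was called (limma adjusted p = 0.148 to 0.355). Without day 16, or with its replicates averaged, Hoxa9 alone of the 5 was called. Median-of-ratios rescaling turned the split of all genes from 171 rising and 451 falling to 263 and 157, moved the median slope from -0.09 to 0.02 log2, and left Hoxa9, Hoxa11 and Hoxd11 called as falling. Since no slope differed between the lines by the test, the fall is not shown to be particular to exp.

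**Figure D4:**
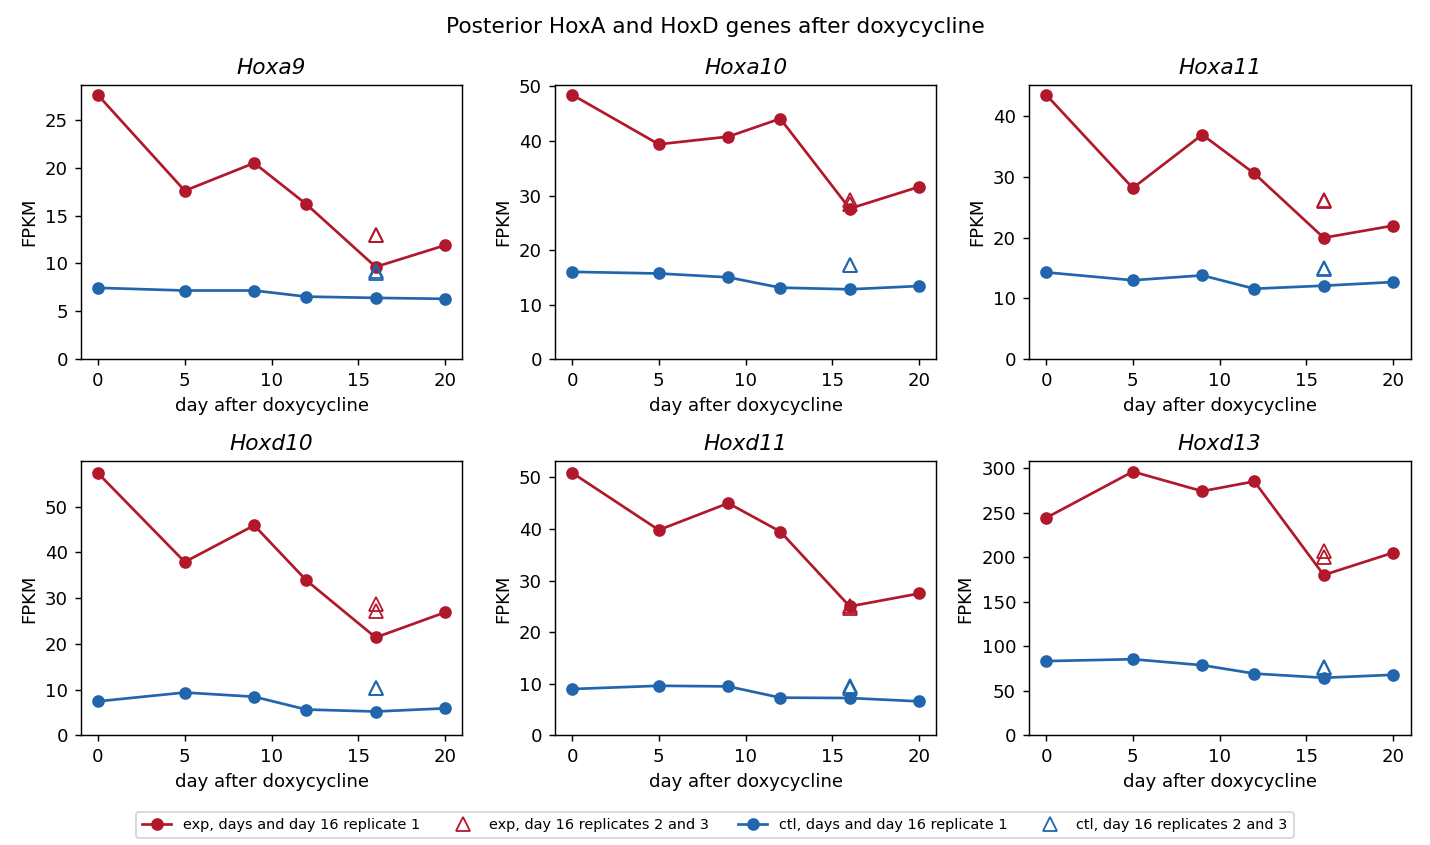
FPKM against day after doxycycline for the 5 members that fell in exp and for Hoxd13, exp in red and ctl in blue. Lines join the single libraries with day 16 replicate 1, and open triangles are day 16 replicates 2 and 3. The exp values lie above all ctl values in each panel.

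Within exp, a group of Hox genes varied between libraries. Of 25 members with a mean of at least 1 FPKM in exp, 9 had their 2 lowest values in day 16 replicates 2 and 3 and their 2 highest in day 16 replicate 1 and day 20, where 2.46% of 12579 genes did. They were Hoxa4, Hoxb2, Hoxb3, Hoxb4, Hoxb6, Hoxb8, Hoxb9, Hoxc13 and Hoxd3. Hoxb2 had 7.61, 0.969 and 0.807 FPKM in the day 16 replicates and 7.19 FPKM at day 20. Hoxd3, with 2.24, 0.377 and 0.412 FPKM at day 16, and Hoxc13, with 5.29, 0.251 and 0.236, did the same. The size of the day 16 difference between the lines moved with the replicate. Exp minus ctl was 2.17 log2 for Hoxb2 in replicate 1 and 0.61 in the mean of replicates 2 and 3. Hoxc13 gave 2.38 and 0.31, Hoxd4 2.26 and 1.00, Hoxd8 3.52 and 2.10, and Hoxb9 -1.51 and -3.28. Hoxb3, which was not called, had opposite signs (0.43 and -0.83). In ctl, 0 of 28 members showed this order, where 1.75% of 12386 genes did, a share too low for 0 to set the members apart. Members stood out in ctl day 16 replicates 2 and 3 as well. These were the 2 highest ctl libraries for 11 of the 28 members, such as Hoxa3 (12.2 and 11.8 FPKM). They were the 2 lowest for 8 of the 28, such as Hoxc6 (20.0 and 21.0 FPKM). The share of all genes is not given for these counts, so they do not set the members apart. The sum of 7 mesothelial markers was 310, 313, 154, 307, 1110, 88.7, 101 and 986 FPKM in the exp libraries and 97.2 to 127 FPKM in ctl. All 7 of these markers had a mean of at least 1 FPKM in exp and 2 of 7 did in ctl. Wt1 was 2.10 to 28.2 FPKM in exp and at most 0.0202 in ctl, and Upk3b was 22.9 to 455 FPKM in exp and at most 0.611 in ctl. Msln ranged over 15.3 to 131 FPKM in exp and 84.8 to 121 FPKM in ctl. The sum of 4 epithelial markers was 2.97 to 50.4 FPKM in exp and 1.3 to 1.93 FPKM in ctl, and 3 of 4 had a mean of at least 1 FPKM in exp and 1 of 4 in ctl. Krt18 had 17.7, 14.3, 6.07, 7.74, 41.5, 2.27, 2.03 and 31.9 FPKM in exp and at most 0.282 FPKM in ctl (3.27 ± 0.51 log2), and Krt8 was higher by 1.48 ± 0.38 log2. The remaining epithelial markers overlapped between the lines. Cdh1 had a mean of 1.02 FPKM in exp and 1.24 in ctl, and Epcam 0.191 and 0.144. The mesothelial sum and Krt18 were high and low in the same exp libraries as the 9 Hox genes, and their part in the result was not tested.

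**Figure D5:**
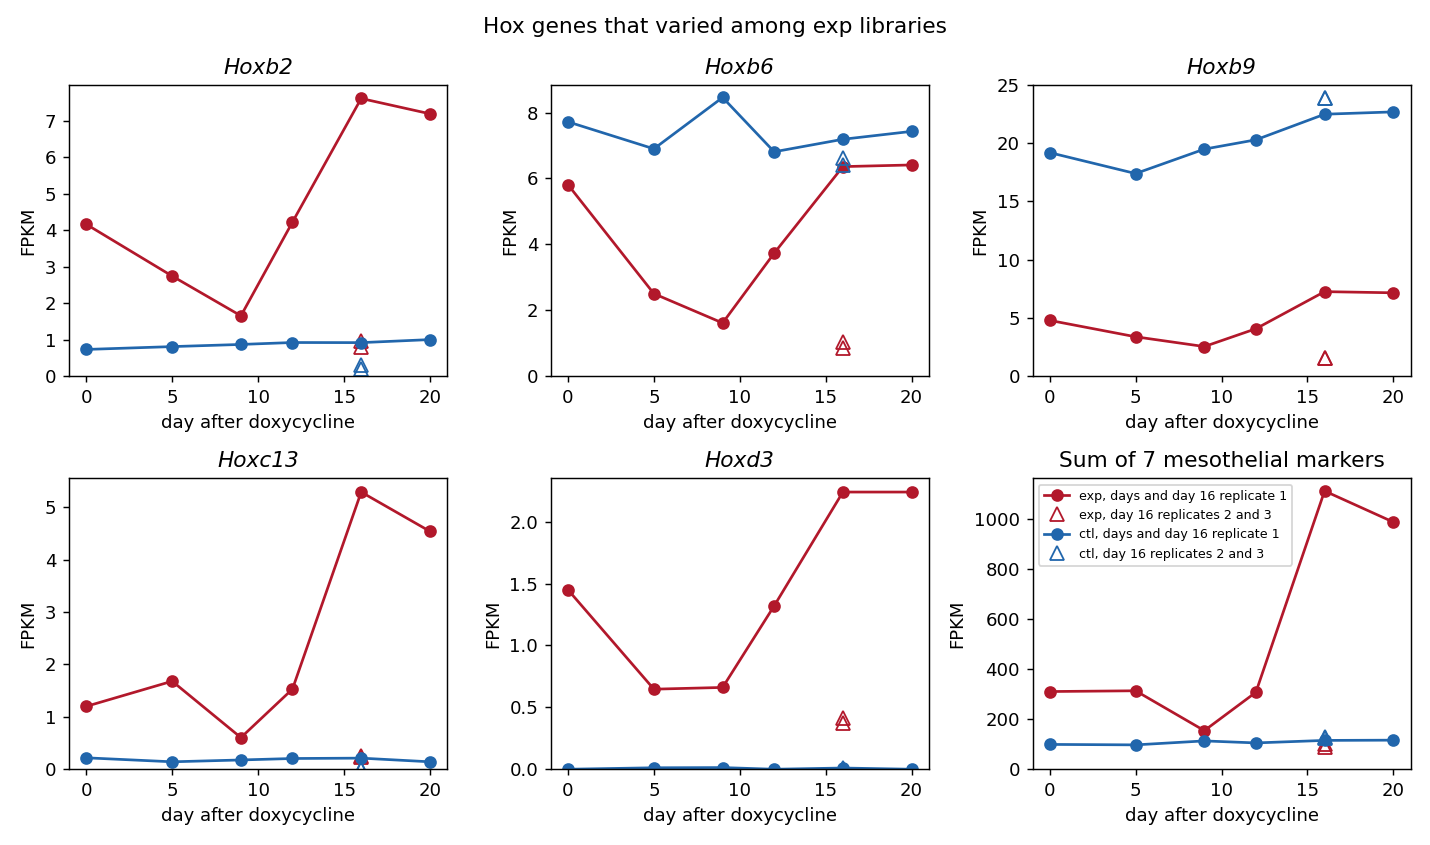
FPKM against day after doxycycline for Hoxb2, Hoxb6, Hoxb9, Hoxc13 and Hoxd3 and for the sum of 7 mesothelial markers, exp in red and ctl in blue. Open triangles are day 16 replicates 2 and 3. In exp all 6 panels are low in these 2 libraries and high in day 16 replicate 1 and day 20 (Hoxb6 0.847 and 1.03, against 6.36 and 6.41 FPKM).

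Among the Hox cofactors of the TALE class, which bind DNA beside Hox proteins, 9 were tested and 0 were called higher and 2 lower over all days (19.2% and 16.7% of all genes). Meis1, whose product pairs with Hox proteins and marks the proximal limb, had 0.904, 0.994, 0.902, 0.671, 0.75, 0.755, 0.827 and 1.06 FPKM in exp, against 7.96, 8.82, 8.7, 8.89, 8.5, 8.65, 8.8 and 7.45 FPKM in ctl, a difference of -2.35 ± 0.06 log2 (limma, adjusted p = 8.55e-11). Pbx3 was lower, with a log2 difference of -0.69 ± 0.17, and its 2 lowest exp values were day 16 replicates 2 and 3, at 8.48 and 7.85 FPKM. Its lines overlapped, with up to 26.4 FPKM in exp and down to 23.6 FPKM in ctl, and it was not called at day 16 (limma adjusted p = 0.0591). Of 22 Polycomb genes 5 were called higher and 5 lower, Ezh1 at -0.47 ± 0.07, Phf19 at -0.45 ± 0.10, Bmi1 at 0.23 ± 0.05, Cbx2 at -0.30 ± 0.08 and Ring1 at 0.23 ± 0.07 log2 among them. Of 12 Trithorax and demethylase genes 1 was higher and 3 were lower, with Kdm6a, an X-linked H3K27 demethylase, at -0.46 ± 0.05, Psip1 at 0.15 ± 0.04, Men1 at -0.19 ± 0.06 and Kdm6b at -0.20 ± 0.07 log2. The shares of called genes in these 2 lists, 10 of 22 and 4 of 12, stand beside 35.9% of all genes. Of 11 upstream inducers 4 were tested, and Rarg, a retinoic acid receptor, was lower, with a log2 difference of -0.27 ± 0.06. Of the 10 Polycomb calls 6 were lost in at least 1 alternative. Without day 16, the calls of Bmi1 (limma adjusted p = 0.0738), Psip1 (0.105) and Rarg (0.137) were lost. Ring1 lost its call in 7 of 23 alternatives (up to 0.0829), exp replicate 1 or ctl replicate 2 left out among them. Kdm6b lost it in 11 of 23 (up to 0.113), any 1 exp replicate or ctl replicate 1 left out among them, and Men1 in 4 of 23 (up to 0.0711), without exp replicate 3 among them.

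Of 17 limb and regional identity genes outside the clusters, 15 were tested, and 10 were higher and 4 lower over all days (19.2% and 16.7% of all genes), with a median of 0.68 log2 beside 0.01 for all genes. Pitx1, which specifies the hindlimb, had 4.49, 3.27, 6.54, 6.2, 4.02, 4.27, 3.14 and 3.52 FPKM in exp, against 0.0128, 0.0282, 0.032, 0.0291, 0.0234, 0.0673, 0.0302 and 0.0 FPKM in ctl (2.37 ± 0.11 log2). Tbx4, its hindlimb partner, had 3.31, 3.27, 3.42, 3.5, 2.13, 3.16, 3.64 and 1.82 FPKM in exp, against 0.192, 0.287, 0.252, 0.251, 0.22, 0.166, 0.0908 and 0.223 FPKM in ctl (1.72 ± 0.10 log2). Both were high in every exp library and near 0 in every ctl library, day 0 included. Tbx5, the forelimb gene, was present in both lines at 6.26 to 12.8 FPKM in exp and 5.77 to 7.85 FPKM in ctl (0.40 ± 0.13 log2, limma adjusted p = 0.0261), and its call was lost without ctl replicate 1, day 9 or day 12 (up to 0.0666). Hand2, a gene of the posterior limb bud, was higher by 1.89 ± 0.21, Lhx9 by 2.30 ± 0.25 and Tbx18 by 1.14 ± 0.15 log2, and Emx2, of the shoulder girdle and the urogenital tract, was lower, with a log2 difference of -1.25 ± 0.10. In day 16 replicate 1 and in the mean of replicates 2 and 3, Hand2 differed by 2.87 and 1.37 log2. Lhx9 differed by 2.28 and 0.93, and Tbx18 by 1.63 and 0.53. Tbx18 was not called at day 16 (limma adjusted p = 0.102). The day 16 calls of Hand2 and Lhx9 were lost in 10 of 15 and 8 of 16 alternatives. Of 24 protein-coding neighbours of the clusters 19 were tested, and 6 were higher and 2 lower, a share of called genes near the 35.9% of all genes. Evx2, next to Hoxd13, had 14.1, 13.3, 14, 14.7, 7.91, 6.72, 6.12 and 8.7 FPKM in exp, against 3.25, 3.53, 3.37, 2.34, 2.2, 2.73, 2.7 and 2.44 FPKM in ctl (1.56 ± 0.12 log2), and Lnpk, beyond it, was higher by 0.89 ± 0.11 log2. The other 6 differed by 0.49 ± 0.07 (Hibadh), 0.44 ± 0.07 (Tax1bp1), -0.43 ± 0.06 (Skap2), 0.35 ± 0.07 (Snx10), 0.35 ± 0.10 (Mtx2) and -0.18 ± 0.05 (Smug1) log2. The Mtx2 call was lost without day 5 or day 16 (limma adjusted p up to 0.0654), and the Smug1 call in 4 of 23 alternatives (up to 0.146).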

How the data were processed

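RNA was prepared with a kit for mRNA libraries that does not mark strand, per the labels' protocols. The deposited values are FPKM per gene, 1 file per library, made by the authors. Alignment used Bowtie2 2.2.3 and build mm9, per the submitters' processing notes, and no source used here gives the counting tool or the annotation. For 24485 gene IDs, 24416 symbols were found with a RefSeq table (GRCm38.p6). Gene coordinates and exon overlaps come from GENCODE annotation of mm9, and sequences from RefSeq (GRCm38.p6).

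Whole reads were recovered from the steps of the FPKM values for 18249 of 18966 genes with reads in at least 2 libraries (tolerance 0.02 read), which gave the depths of 18121427 to 42486270 reads. Their number limits the precision of low genes. FPKM were tested as log2(FPKM + 1) with limma 3.58.1 in R 4.3.3 (trend and robust, two-sided, Benjamini-Hochberg over all genes with a mean of at least 1 FPKM, called at an adjusted p under 0.05). The day 16 fit used 6 libraries. The fit over all days used 16 libraries with day as a factor. Slopes are per 20 days. The steps were tested on simulated data.

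Same-numbered day 16 replicates of the lines deviated together (r = 0.381, 0.272 and 0.333 over genes). The main fits did not use this pairing, and it entered only the fit with the replicate number as a block. Replicate 1 stood apart from replicates 2 and 3, which are not told apart from each other by this check, since exp replicate 3 with ctl replicate 2 gave 0.398 and exp replicate 2 with ctl replicate 3 gave 0.209. The fit with the replicate number as a block is given where it changed a call.

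1 member and 1 list gene are not reported here by name, though counts and sums include them. Every other member is accounted for by cluster and paralog group, with all library values for members at 5 FPKM or more in at least 3 libraries of a line or at the edge of a called run. List genes are named when called, at most 6 per list by the smallest p, together with a few markers and neighbours beyond that rule chosen after their values were seen. The members and lists were chosen with earlier results of these data known. Alternatives were pseudocounts of 0.1 and 5, no filter and a mean of at least 5 FPKM, rescaling, limma without trend and robust, limma voom on recovered reads, and libraries or days left out.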

Additional observations from a re-analysis of the deposited data

How the results depend on the processing

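Over all days, the 29 member calls held in every alternative in which the gene was tested, and 4503 genes in all were called. Hoxb3, not called, turned to 0.04 log2 without day 16 replicates 2 and 3. At day 16, where 765 genes were called, leaving out 1 replicate gave 197 to 1599, a mean of at least 5 FPKM gave 493, and replicates 2 and 3 alone gave 4326. There Hoxb8 (limma adjusted p = 0.0495) lost its call in 10 of 15 alternatives, and Hoxb9 lost it without exp replicate 2 or 3 or any ctl replicate. Hoxb7 lost it without ctl replicate 2 (0.0526). Hoxb4 and Hoxb6 were called without exp replicate 1 and with replicates 2 and 3 alone, Hoxa9 with replicates 2 and 3 alone, and Hoxd4 with a pseudocount of 0.1 and with limma voom. The cause of these changes was not tested.

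Slope differences were called for 26 genes, and for 49 under quantile normalization, 1 without day 0, 8 without day 5, 14 without day 9, 12 without day 12, 0 without day 16, 0 with day 16 averaged, 2 without its replicates 2 and 3, and 2 to 35 leaving out 1 replicate. No member was among them. Slopes in exp were called for 622 genes, 249 to 466 leaving out 1 replicate, 9 without day 0, 1381 without day 5, 371 without day 12, 72 without day 16 and 116 with day 16 averaged. Hoxd12 was called as falling without day 0 and with a pseudocount of 5, and Hoxd8 as rising with that pseudocount and without day 16 replicates 2 and 3. Slopes in ctl were called for 0 genes, 1 without replicates 2 and 3, and 0 to 2 leaving out 1 replicate.

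With the replicate number as a block, 1023 genes were called at day 16, 4762 over all days, 37 for the slope difference, 1036 for the exp slope and 1 for the ctl slope. The block changed no member call other than those of Hoxa4 and Hoxa9 at day 16. Genes under 1 FPKM rest on few reads, and their differences are limited by depth.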
